A study of Mus musculus with 17 samples.

Results

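The 7 genes that encode the subunits of N-methyl-D-aspartate (NMDA) receptors, Grin1, Grin2a, Grin2b, Grin2c, Grin2d, Grin3a and Grin3b, were followed through a mouse RNA-seq series of cerebral arteriolar smooth muscle cells (aSMCs), astrocytes and cortex. They were chosen by symbol, with earlier results of these data known, and all 7 were among the 21640 genes of the count table. The study asked whether aSMCs carry receptors for neurotransmitters, and its 17 libraries fall into 4 groups.

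The aSMC Ai14 group holds 2 libraries (replicates 7 and 8) of tdTomato-positive cells sorted by fluorescence from cerebral arterioles of SMACreER:Ai14 mice, in which a tamoxifen-inducible Cre under a smooth muscle actin promoter switches on the reporter. The aSMC Ai47 group holds 6 libraries of EGFP-positive cells sorted from enriched brain vessels of adult SMACreER:Ai47 mice. These mice carry the same Cre driver and had received tamoxifen before the sort. This sort selected against cells bearing the endothelial marker CD31 or the immune marker CD45, and the endothelial marker levels left are given below. The astrocyte group holds 3 libraries of tdTomato-positive cells sorted from the cerebral cortex of hGFAPCreER:Ai14 mice, where a human GFAP promoter drives the Cre. The cortex group holds 6 libraries of cortical homogenate with no sort, labelled as wild type. For its aSMC and cortex samples the study gives as many mice as samples, without tying each library to a mouse. Ages of the Ai14 mice, any negative selection in their sorts and the number of animals behind the aSMC Ai14 and astrocyte libraries were not stated in the sources at hand, so p-values measure the spread between these libraries, which may in part be technical.

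An NMDA receptor is a cation channel built around the obligatory GluN1 subunit, the product of Grin1. GluN2 subunits (Grin2a to Grin2d) bind glutamate and set the kinetics and the block by magnesium, while GluN1 and GluN3 subunits (Grin3a and Grin3b) bind glycine or D-serine. In neurons the channel opens when glutamate arrives at an already depolarised membrane and lets in calcium, and in adult forebrain GluN2A and GluN2B are the main partners of GluN1.

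Levels are given as counts per 1000000 counts of library size after scaling by the trimmed mean of M values, TMM (CPM), and comparisons between genes as CPM per kb of exon. Library totals ran from 14870507 to 14979228 counts in aSMC Ai14, 41499087 to 53643624 in aSMC Ai47, 4537137 to 7390630 in astrocyte and 5397905 to 7288036 in cortex libraries, and 3 counts were worth between 0.0909 and 0.775 CPM in a single library. Mitochondrially encoded genes took 16.8 to 17.6% of the counts in aSMC Ai14, 0.214 to 0.559% in aSMC Ai47, 10.7 to 12.5% in astrocyte and 35.7 to 72.9% in cortex libraries. The labels were checked against marker lists. The 9 smooth muscle markers summed to between 10200 and 11010 CPM in aSMC Ai14 and 6259 to 7457 CPM in aSMC Ai47, against 44.8 to 176 CPM in cortex, with Acta2 at 2514 to 2734 CPM in aSMC Ai14 and 2464 to 4460 CPM in aSMC Ai47, against 7.36 to 48.7 CPM in cortex. The sum of the 7 pericyte markers was also high in both aSMC groups (7347 to 10440 CPM in aSMC Ai14 and 2997 to 6052 CPM in aSMC Ai47, against 264 to 751 CPM in cortex). It was mostly Rgs5, with means of 8185 CPM in aSMC Ai14 and 3495 CPM in aSMC Ai47. The part of pericytes in the values below was not tested. The astrocyte libraries fitted their label only in part. Their 10 astrocyte markers summed to 1276 to 1945 CPM, against 3438 to 18830 CPM in cortex, where Slc1a2 alone averaged 9206 CPM. By the test described below, 2 of the 10 were higher in astrocyte libraries than in cortex (Gja1 and Sox9). Slc1a2 and Slc4a4 were lower. The same markers summed to 186 to 262 CPM in aSMC Ai14 and to 1186 to 1893 CPM in aSMC Ai47. The aSMC Ai47 sum was mostly Gja1 (mean 1093 CPM) and Sox9 (342 CPM). Against astrocyte libraries these 2 were higher in aSMC Ai47 and 7 of the 10 were lower, among them Aqp4 (0.596 against 510 CPM). In astrocyte libraries Aldh1l1 was at 0 in 1 of the 3 and at 58.4 CPM in another, and Foxj1, a regulator of motile cilia that marks ependymal cells, stood at 237 to 525 CPM against 0 to 1.43 CPM in cortex. They are named here by their label.

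Across the groups, cortex had the highest mean of 5 of the 7 genes (Grin1, Grin2a, Grin2b, Grin2c and Grin3a). Grin2d was highest in aSMC Ai14, where it was the most abundant of the 7, and Grin3b was highest in aSMC Ai47, on 1 library. Astrocyte libraries had no count of 5 genes (Grin1, Grin2c, Grin2d, Grin3a and Grin3b).

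In the GENCODE M21 annotation of GRCm38, Grin1 lies at chr2:25291181-25319187 (minus strand, 9700 bases of exon), Grin2a at chr16:9567898-9995560 (minus, 17933 bases), Grin2b at chr6:135713233-136173511 (minus, 24842 bases), Grin2c at chr11:115249169-115267243 (minus, 5037 bases), Grin2d at chr7:45831883-45878378 (minus, 6658 bases), Grin3a at chr4:49661611-49845744 (minus, 12275 bases) and Grin3b at chr10:79970715-79977190 (plus, 3296 bases). Grin3b shares 1059 bases of exon with Tmem259 on the opposite strand, a gene with 215 to 299 counts in aSMC Ai14, 4 to 24 in aSMC Ai47, 0 to 56 in astrocyte and 0 to 40 in cortex libraries. The sources at hand do not say whether counting used strand, so reads of this pair cannot be told apart and the values of Grin3b are uncertain. Kdelr1 overlaps the span of Grin2d but none of its exons. It had 637 to 736 counts in aSMC Ai14, 11 to 186 in aSMC Ai47, 178 to 730 in astrocyte and 8 to 66 in cortex libraries. Its part in the Grin2d counts was not tested. Antisense transcripts are annotated over exons of Grin1 (Grin1os, 1307 bases) and Grin2d (Gm45441, 643 bases). They are not among the genes counted and were not analysed here. With the strand setting unknown, their reads cannot be told apart from those of Grin1 and Grin2d.

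The 250 bases before the RefSeq start (GRCm38.p6) are shown for Grin1, the obligatory subunit, and Grin2d, whose order between aSMC Ai14 and cortex is opposite to that of Grin1. RefSeq windows were matched for 4 of the 7 genes (Grin1, Grin2c, Grin2d and Grin3b). Capitals mark the CRE core, TGACG, read on the other strand.
Grin1, chr2:25319188-25319437, minus strand: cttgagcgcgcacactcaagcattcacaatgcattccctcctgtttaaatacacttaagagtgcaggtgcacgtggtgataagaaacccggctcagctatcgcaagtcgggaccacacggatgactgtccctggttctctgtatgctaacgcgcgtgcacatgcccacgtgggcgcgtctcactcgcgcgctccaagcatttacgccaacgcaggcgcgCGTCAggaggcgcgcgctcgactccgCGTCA
Grin2d, chr7:45866682-45866931, minus strand: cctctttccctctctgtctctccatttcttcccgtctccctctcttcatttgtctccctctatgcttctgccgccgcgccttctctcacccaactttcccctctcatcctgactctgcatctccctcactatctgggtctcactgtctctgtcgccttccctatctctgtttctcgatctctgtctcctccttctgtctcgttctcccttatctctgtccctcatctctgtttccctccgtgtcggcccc
The windows differ in base composition. The Grin1 window held 27 CG dinucleotides, more than 91.4% of the 32851 RefSeq promoter windows of this length, and 2 CRE cores, a motif found in 17.8% of all windows. The Grin2d window held 9 CG dinucleotides and was 82.8% C and T, against 52.4% in the Grin1 window and a median of 50% over all windows. It held no GC box (GGGCGG), CRE (TGACGTCA), CRE core or CArG box on either strand, motifs found in 32.7%, 1.55%, 17.8% and 1.47% of all windows. The GENCODE span of Grin2d runs beyond this RefSeq start, so the window lies inside the annotated gene.

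**Figure D1:**
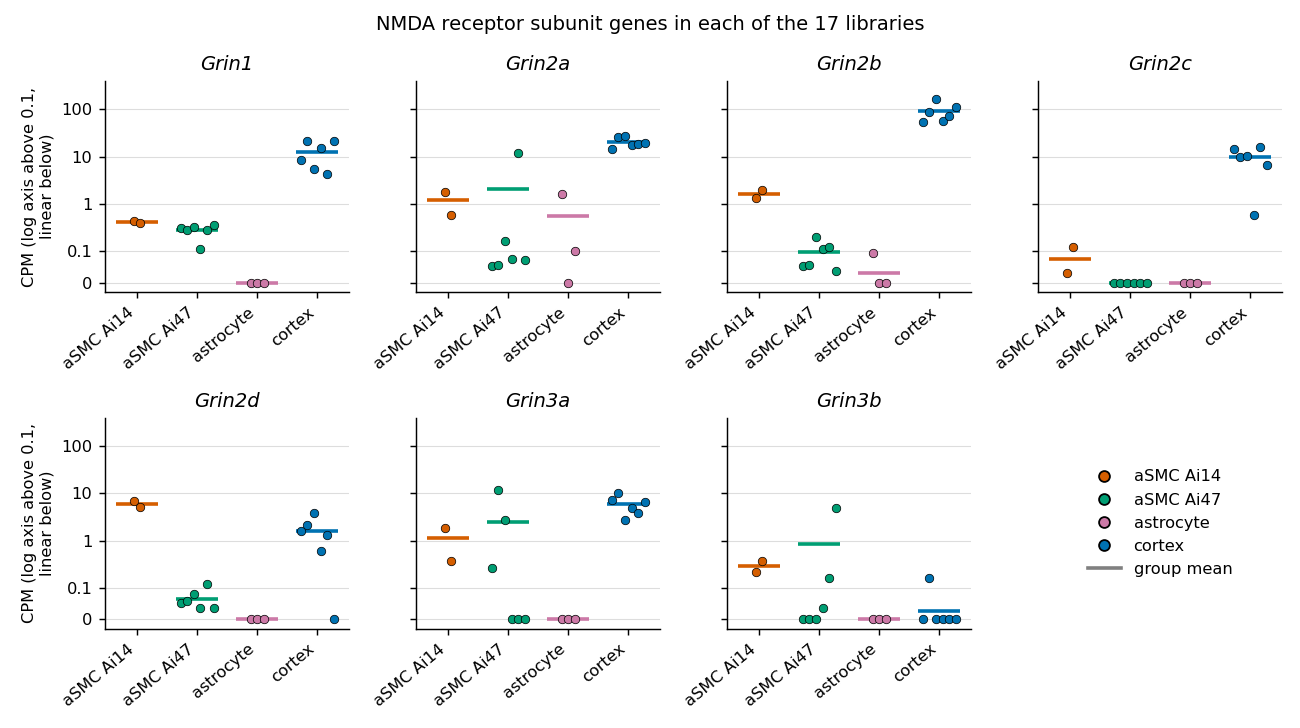
CPM of each NMDA receptor gene in each of the 17 libraries (points) with the group mean (line), 1 panel per gene, on an axis that is logarithmic above 0.1 CPM and linear below. Cortex libraries lie above both aSMC groups for Grin1, Grin2a, Grin2b and Grin2c, whereas for Grin2d both aSMC Ai14 libraries (6.91 and 5.21 CPM) lie above all 6 cortex libraries, and single aSMC Ai47 libraries carry the means of Grin2a, Grin3a and Grin3b.

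Grin1 was present in both aSMC groups at a small part of its cortical level. It had 14 and 13 counts in aSMC Ai14 (0.426 and 0.394 CPM), between 3 and 10 counts in aSMC Ai47 (lowest 0.111, median 0.2996 and highest 0.364 CPM), no counts in the 3 astrocyte libraries, and between 17 and 271 counts in cortex (4.39, 11.9 and 21.6 CPM). All 8 aSMC libraries held Grin1 counts, all lay below the lowest cortex library, and the libraries of the 2 aSMC groups did not overlap, although only aSMC Ai47 replicate 4 lay outside the Poisson intervals of the aSMC Ai14 libraries. The means were 0.410 ± 0.0227 CPM in aSMC Ai14 (SD, n = 2), 0.280 ± 0.0883 CPM in aSMC Ai47 (n = 6) and 12.7 ± 7.69 CPM in cortex (n = 6). Relative to cortex, Grin1 was lower in aSMC Ai14 (log2 fold change -4.93 ± 1.35 SE, adjusted p = 0.0359) and in aSMC Ai47 (-5.36 ± 0.70, adjusted p = 5.37e-06), both from edgeR's quasi-likelihood test. The first of these calls was lost without aSMC Ai14 replicate 7 or 8 (log2 fold change -5.18 and -5.13, adjusted p = 0.34 and 0.353), fits in which the lone aSMC Ai14 library is assumed to vary like the other groups and which called 213 and 204 genes of the series higher and 19 and 18 lower, against 593 and 298 with both. It was also lost without cortex replicate 2 (-5.03, adjusted p = 0.064) or 6 (-4.93, adjusted p = 0.0561). The difference between the 2 aSMC groups was 0.54 ± 0.97 (adjusted p = 0.735). In tissue and sorted libraries alike, fewer cells that express a gene and less RNA of it per cell cannot be told apart. The absence of counts in astrocyte libraries allows a Grin1 level of up to 0.0782 CPM over the group (3 counts, counting error only), which puts it at least 162-fold below cortex (adjusted p = 0.00011) and at least 5.24-fold below aSMC Ai14, where Grin1 was higher than in astrocyte libraries (adjusted p = 0.015, and 0.0503 and 0.0518 without aSMC Ai14 replicate 7 and 8).

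Grin2b, the GluN2B subunit that is prominent in early and adult forebrain, was the highest of the 7 in cortex and low in every sorted group. It had 43 and 64 counts in aSMC Ai14 (1.31 and 1.94 CPM), 1 to 5 counts in aSMC Ai47 (lowest 0.0364, median 0.0838 and highest 0.203 CPM), 1, 0 and 0 counts in astrocyte libraries, and 278 to 1323 counts in cortex (53.6, 80.5 and 165 CPM). No group pair overlapped here except aSMC Ai47 with astrocyte. Grin2b was lower than in cortex in aSMC Ai14 (log2 fold change -5.82 ± 1.07, adjusted p = 0.00159) and in aSMC Ai47 (-9.67 ± 0.59, adjusted p = 9.1e-10). The aSMC Ai14 call was lost without replicate 7 or 8 of that group, again with 1 library left in it (log2 fold change -5.78 and -6.40, adjusted p = 0.0745 and 0.0545). Between the aSMC groups it was higher in aSMC Ai14 by 3.95 ± 0.71 (adjusted p = 0.000445), a 16.8-fold ratio of means, a call lost with the aSMC Ai47 columns summed to 1 library (log2 fold change 3.44, adjusted p = 0.221), a fit that called 63 genes of 15916 higher in aSMC Ai14, against 2392 of 14927 with the columns apart. Against the single astrocyte count, the pooled ratio of cortex to astrocyte was 3600 (exact 95% interval 645 to 142000) and that of aSMC Ai14 to astrocyte was 62.3 (10.9 to 2480), and both differences passed the test (adjusted p = 2.09e-06 and 0.00175), the second not when only these 2 groups were fitted (log2 fold change 5.61 against 5.53 in the 17-library fit, adjusted p = 0.0922), a fit that called 0 of 12864 genes, with 2836 at an unadjusted p under 0.05.

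Grin2a, the GluN2A subunit that gains ground as the forebrain matures, had 59 and 19 counts in aSMC Ai14 (1.80 and 0.576 CPM) and 73 to 326 counts in cortex (lowest 14.5, median 19.0 and highest 27.2 CPM). Of the aSMC Ai47 libraries, 5 held 1 to 4 counts and replicate 5 held 292 (11.8 CPM). The astrocyte libraries held 17, 0 and 2 counts (1.59, 0 and 0.101 CPM). All sorted libraries lay below the lowest cortex library. In aSMC Ai47 the mean of 2.04 ± 4.79 CPM (n = 6) fell to 0.0836 ± 0.045 CPM without replicate 5, which held 96.6% of the group's summed CPM, and in astrocyte libraries the mean of 0.564 ± 0.891 CPM (n = 3) fell to 0.0505 CPM without replicate 1, which held 94%. The log2 fold change from cortex was -4.11 ± 2.21 in aSMC Ai14 (adjusted p = 0.313, not past the threshold), -3.29 ± 1.24 in aSMC Ai47 (adjusted p = 0.0316) and -5.17 ± 1.97 in astrocyte libraries (adjusted p = 0.0469). The last pair of calls lay near the threshold. That in aSMC Ai47 was lost without cortex replicate 2, 3, 4, 5 or 6 (adjusted p between 0.0507 and 0.0551). That in astrocyte libraries was lost without any 1 of the 6 cortex libraries or without astrocyte replicate 2 or 3, at adjusted p between 0.0509 and 0.105. The difference between the aSMC groups changed sign with 1 library, being -0.78 ± 1.78 with all libraries (adjusted p = 0.798) and 3.18 without aSMC Ai47 replicate 5 (adjusted p = 0.0376), and it was 1.47 when scaled by library totals alone.

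Grin2c encodes GluN2C, known from cerebellar granule cells and, in the mouse cortex, from astrocytes. It had 1 and 4 counts in aSMC Ai14 (0.0304 and 0.121 CPM), none in the 6 aSMC Ai47 and 3 astrocyte libraries, and 3 to 126 counts in cortex (lowest 0.593, median 10.1 and highest 16.3 CPM). Per kb of exon it was the second most abundant of the 7 in cortex. The astrocyte libraries thus showed no Grin2c at a group limit of 0.0782 CPM, at least 124-fold below cortex (adjusted p = 0.00202). Their astrocyte markers, given above, were higher than in cortex for some genes and lower for others. The part of this in the Grin2c values was not tested. In aSMC Ai47 Grin2c was at least 455-fold below cortex (adjusted p = 1.9e-05). In aSMC Ai14 the log2 fold change from cortex was -6.87 ± 1.96 (adjusted p = 0.0557, and 0.0373 without cortex replicate 4), just outside the threshold, and Grin2c passed as higher than in aSMC Ai47 on 5 counts alone (at least 3.56-fold, adjusted p = 0.0499), a call that was lost without any 1 of the 8 libraries (adjusted p between 0.0966 and 0.371).

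Grin2d encodes GluN2D, whose receptors are weakly blocked by magnesium and close slowly, and which in adult forebrain is known mainly from interneurons. It had 227 and 172 counts in aSMC Ai14 (6.91 and 5.21 CPM), 1 to 3 counts in aSMC Ai47 (lowest 0.0364, median 0.0547 and highest 0.121 CPM), none in astrocyte libraries, and 0 to 31 counts in cortex (0, 1.44 and 3.87 CPM). Both aSMC Ai14 libraries were above every other library of the series. The aSMC Ai14 mean of 6.06 ± 1.20 CPM (n = 2) was 3.83 times the cortex mean of 1.58 ± 1.35 CPM (n = 6), yet the fitted log2 fold change of 1.92 ± 1.18 did not pass the test (adjusted p = 0.394), and its adjusted p stayed between 0.165 and 0.873 under the 18 alternatives run. A permutation test, exact and two-sided, on log2(CPM + 0.5) values gave p = 0.0714, the smallest that 28 assignments of 2 against 6 libraries allow (also 0.0714 after adjustment for 2 comparisons). With so few libraries that test could not pass 0.05 whatever the values, so it cannot decide the difference. Grin2d was higher in aSMC Ai14 than in aSMC Ai47 by 6.41 ± 1.25 on the log2 scale (adjusted p = 0.00109), a 94.5-fold ratio of means, and at least 77.5-fold higher than in astrocyte libraries (adjusted p = 0.00351, and 0.0922 in the fit of only these 2 groups, which called no gene). With the aSMC Ai47 columns summed to 1 library the log2 fold change between the aSMC groups was 5.93 and did not pass (adjusted p = 0.419), in the fit with few calls described for Grin2b, and over the 17 alternatives run it lay between 5.80 and 8.54. In astrocyte libraries it was at least 20.2-fold lower than in cortex (adjusted p = 0.00442), and in the 12-library fit of aSMC Ai47 and cortex Grin2d was left out by the filter on low counts.

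The GluN3 genes had the most uneven values. Grin3a, which in cortex peaks in early postnatal life, had 61 and 12 counts in aSMC Ai14 (1.86 and 0.364 CPM) and 15 to 127 counts in cortex (lowest 2.75, median 5.69 and highest 10.1 CPM). The aSMC Ai47 libraries held 5, 210, 68, 0, 0 and 0 counts (0.262, 11.97 and 2.76 CPM in replicates 1 to 3), and astrocyte libraries held none. Replicate 2 carried 79.9% of the aSMC Ai47 sum and took the mean from 0.604 CPM without it to 2.50 ± 4.76 CPM with it (n = 6). Grin3a did not pass the test against cortex in aSMC Ai14 (log2 fold change -2.40 ± 2.21, adjusted p = 0.614) or in aSMC Ai47 (-1.09 ± 1.33, adjusted p = 0.499), nor between the aSMC groups (-1.16 ± 2.03, adjusted p = 0.729). That last difference was 0.29 without aSMC Ai47 replicate 2 and 1.19 when scaled by library totals alone. It was lower in astrocyte libraries than in cortex, by at least 75.4-fold (adjusted p = 0.0192).

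Grin3b, known mainly from motor neurons, had 7 and 12 counts in aSMC Ai14 (0.213 and 0.364 CPM). In aSMC Ai47 it had 0, 0, 0, 1, 4 and 133 counts, so that replicate 6 (4.84 CPM) held 96.1% of the sum and the mean dropped to 0.0397 CPM without it. Astrocyte libraries had none and cortex had 2 counts, both in replicate 2. Grin3b did not pass the filter on low counts and was not tested. The pooled ratio of aSMC Ai14 to cortex was 6.29 (exact 95% interval 1.52 to 55.6, counting error only), and reads of Tmem259 in it cannot be told apart.

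Of the 28 group means of the 7 genes, 22 rested on counts and 6 were at 0. Of the 22, 9 rested on 1 library, meaning that it held more of the group's summed CPM than all the others together or, in aSMC Ai14, over 3 times the other library. These were Grin2a, Grin3a and Grin2c in aSMC Ai14, Grin2a, Grin3a and Grin3b in aSMC Ai47, Grin2a and Grin2b in astrocyte, and Grin3b in cortex. Such means were common beyond the NMDA receptor genes. Among genes with at least 20 counts over a group, 29.1% of 14139 in aSMC Ai47, 86.7% of 11491 in astrocyte and 18.1% of 13631 in cortex had more of their summed CPM in 1 library than in the others together.

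**Figure D2:**
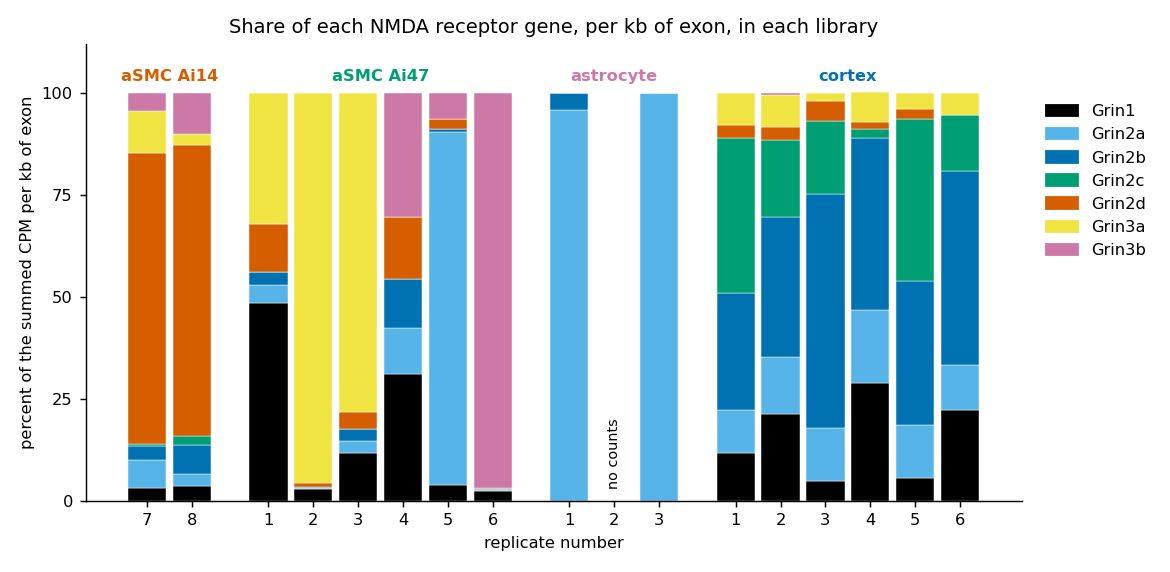
Share of each NMDA receptor gene in the summed CPM per kb of exon of the 7, in percent, 1 bar per library with its replicate number below. Grin2d takes 71.3% in both aSMC Ai14 libraries, the aSMC Ai47 bars differ from library to library, and the astrocyte bars stand on 18 and 2 counts, with none in replicate 2.

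Per kb of exon, the mix of subunit transcripts in aSMC Ai14 was unlike that in cortex. Grin2d took 71.3% of the summed CPM per kb in each aSMC Ai14 library, and 86.7% and 85.4% of that of the 4 GluN2 genes, against 0 to 5.38% of the GluN2 sum in cortex. In cortex Grin2b took 28.7 to 57.4% of all 7 and led in 4 libraries, and Grin2c led in replicates 1 and 5 (37.9% and 39.7%). Grin1 took 3.02% and 3.70% in aSMC Ai14 and 4.78 to 29.0% in cortex. In levels rather than shares, Grin2d averaged 0.910 ± 0.180 CPM per kb in aSMC Ai14 and the other 6 genes ran from 0.0151 (Grin2c) to 0.0904 (Grin3a) CPM per kb there. In order, Grin3a, Grin3b, Grin2a and Grin2b did not differ beyond their spread from one to the next, while both libraries had less of Grin1 than of Grin2b and less of Grin2c than of Grin1. The order in cortex was Grin2b (3.70 ± 1.70 CPM per kb), Grin2c (1.93 ± 1.11), Grin1 (1.31 ± 0.793), Grin2a (1.15 ± 0.278), Grin3a (0.481 ± 0.215), Grin2d (0.238 ± 0.203) and Grin3b (0.00805 ± 0.0197), and the ranges of every neighbouring pair in it overlapped. Within each cortex library, Grin2a exceeded Grin3a, whereas the other neighbouring pairs did not keep their order in all of them. The aSMC Ai47 libraries shared no leading gene. Grin1 led replicates 1 and 4 (48.6% and 31.1%), Grin3a led 2 and 3 (95.7% and 78.1%), Grin2a led 5 (86.7%) and Grin3b led 6 (96.8%). Grin2d led the GluN2 genes in replicates 1 to 4 and 6, at 39.3 to 61.0% of their sum, but on 1 or 2 counts a library.

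**Figure D3:**
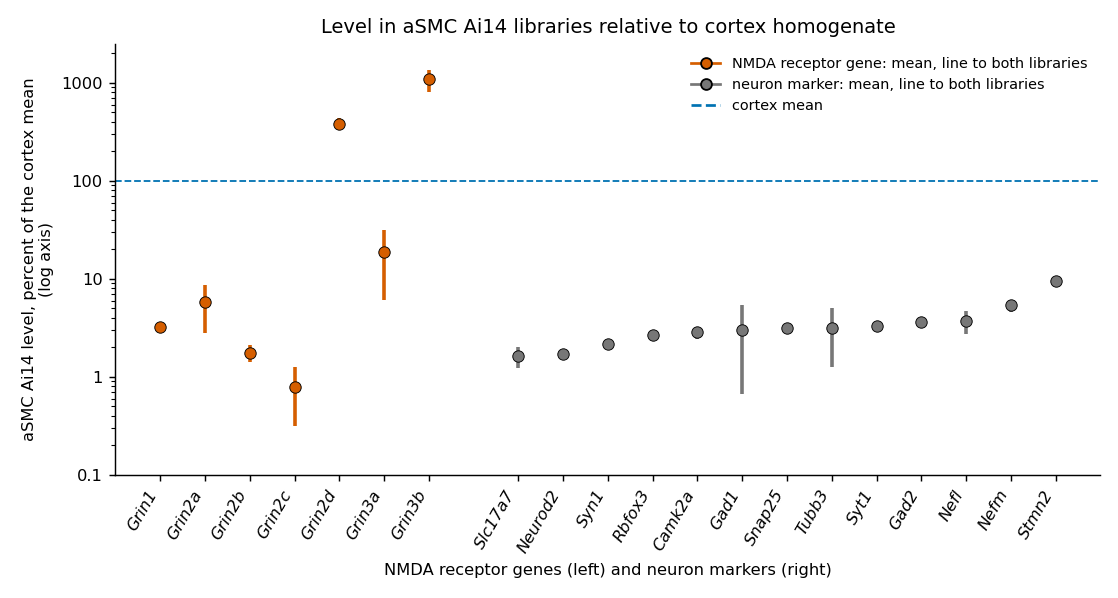
Level in aSMC Ai14 as a percent of the cortex mean, on a log axis, for the 7 NMDA receptor genes (left) and 13 neuron markers (right), with the mean as a point and a line between the 2 libraries. The neuron markers lie between 1.63 and 9.51%, with Grin1, Grin2a and Grin2b among them, while Grin2d stands at 383%, and the cortex mean behind Grin3b holds only 2 counts.

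Neuron markers were present in the aSMC Ai14 libraries, and Grin1, Grin2a and Grin2b stood within the range of these markers' shares of cortex. All 13 neuron markers had counts there and summed to between 81.5 and 104 CPM, against 2350 to 3947 CPM in cortex. As a percent of the cortex mean they ran from 1.63 (Slc17a7) to 9.51 (Stmn2) with a median of 3.12, and Rbfox3 and Syn1 were at 2.66 and 2.18. Beside these, Grin1 was at 3.23%, Grin2b at 1.77%, Grin2a at 5.78%, Grin2c at 0.781% and Grin3a at 18.8% of cortex. Grin2d was at 383%, with 329% and 436% in single libraries, while the interneuron markers Gad1 and Gad2 were at 3.03 and 3.60%. Marker sums of other cell types in aSMC Ai14 were 2.95% of cortex for oligodendrocytes, 4.11% for their precursors, 3.88% for microglia and macrophages, 2.13% for astrocytes, 2.79% for red blood cells, 50.1% for endothelium, 377% for fibroblasts and 2170% for pericytes. The fibroblast sum was mostly Col1a2 (97.4 against 9.35 CPM in cortex), while Dcn, Lum and Pdgfra had lower means than in cortex. The pericyte sum was mostly Rgs5 (8185 CPM). Of the 7 pericyte markers, 4 were higher than in cortex by the test, and Kcnj8, Abcc9 and Anpep did not pass. The part of these cell types in the NMDA receptor counts was not tested.

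In aSMC Ai47, 7 of the 13 neuron markers were lower than in aSMC Ai14 by the test between these groups and none was higher. Their sum was 1.78 to 44.1 CPM, 3 of the 13 were at 0 (Rbfox3, Syn1 and Slc17a7), and their median was 0.409% of cortex. Gad1 (6.38%), Gad2 (5.22%) and Stmn2 (36.0%) had higher means in aSMC Ai47 than in aSMC Ai14, but none of them passed the test between these groups (adjusted p = 0.742, 0.737 and 0.387). In aSMC Ai47, single libraries ran from 0 to 1.67 CPM for Gad1 (mean 0.288 CPM) and from 0.122 to 41.9 CPM for Stmn2 (mean 9.53 CPM). Grin1 was at 2.21% of cortex there (0.871 to 2.87% in single libraries), Grin2b at 0.105% and Grin2d at 4.05%. Fibroblast markers summed to 1531 to 2365 CPM, against 14.6 to 37.9 CPM in cortex, mostly from Col1a1 (mean 1739 CPM) and Col1a2 (114 CPM). The other fibroblast markers were not above cortex by their means. Pdgfra had no counts, Dcn was at 4.13 against 4.16 CPM and Lum at 0.00873 against 0.726 CPM. The part of fibroblasts in these values was not tested. The 9 endothelial markers summed to 316 to 491 CPM in aSMC Ai47, 59.8% of the cortex sum. By the 12-library test 2 of them were higher than in cortex (Cldn5 and Esam) and 6 were lower. Their part was not tested either. In astrocyte libraries 5 of the 13 neuron markers were at 0, Rbfox3 among them, with a median of 0.0439% of cortex, and the highest was Tubb3 at 97.5%, on 139 counts in 1 library.

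**Figure D4:**
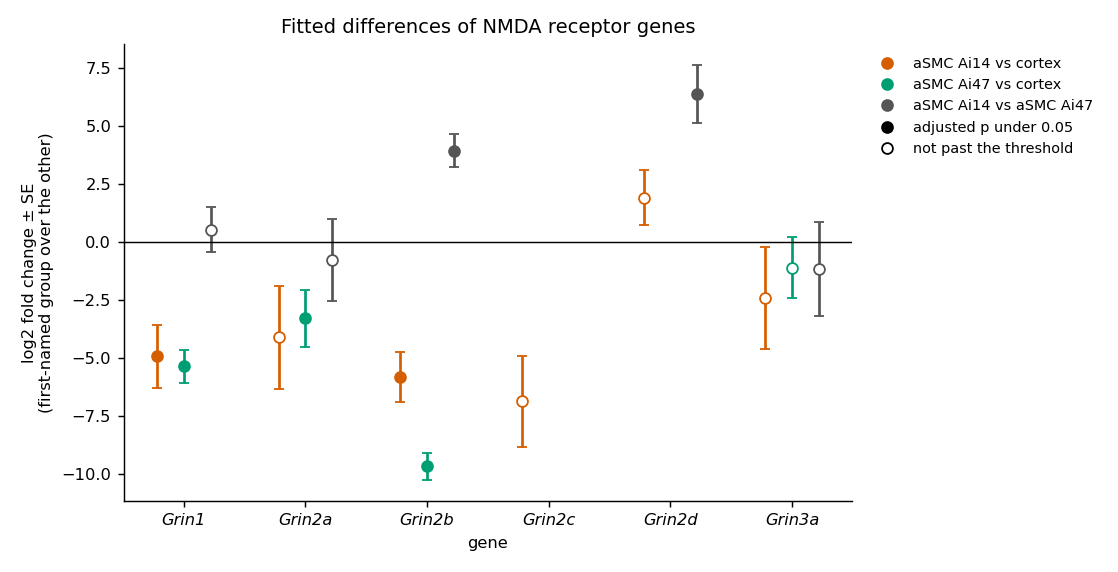
Fitted log2 fold change ± SE of the NMDA receptor genes that were tested and had counts in both groups, for aSMC Ai14 against cortex, aSMC Ai47 against cortex, and aSMC Ai14 against aSMC Ai47, with filled points past an adjusted p of 0.05. Grin2d is the only gene above 0 against cortex in aSMC Ai14 (1.92, not past the threshold), and it has the largest difference between the aSMC groups among the genes drawn (6.41).

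Counted over the tests, none of the 6 NMDA receptor genes tested was higher in aSMC Ai14 than in cortex, where 3.97% of all 14927 genes were, and 2 were lower (Grin1 and Grin2b), where 2% of all genes were. Libraries of aSMC Ai14 and cortex did not overlap for any of the 7, of which 5 were lower and 2 (Grin2d and Grin3b) higher in aSMC Ai14. Of the 19430 genes with counts in these libraries, 9.13% were lower and 22% higher with no overlap. The median log2 fold change of the genes tested was -4.52, against 0.32 over all genes. In astrocyte libraries all 6 tested were lower than in cortex, against 19.8% of all genes (14.6% were higher). In aSMC Ai14 3 were higher than in astrocyte libraries (Grin1, Grin2b and Grin2d), against 13.6% of all genes, and none was lower (3.56%). Between the aSMC groups 3 were higher in aSMC Ai14 (Grin2b, Grin2c and Grin2d), against 16% of all genes, and none was lower (9.55%). In aSMC Ai47 2 were higher than in astrocyte libraries (Grin1, at least 3.58-fold, and Grin3a), against 26.1% of all genes. None was lower (23.8%). The Grin3a bound of 31.9-fold rests on an aSMC Ai47 mean of which replicate 2 held 79.9%. That mean was 0.604 CPM without replicate 2, and 3 of the 6 libraries had counts. The Grin3a call was lost without astrocyte replicate 1 or 3 (adjusted p = 0.0507 and 0.0589). In the 12-library fit 4 of 5 tested were lower in aSMC Ai47 than in cortex, against 25% of 11548 genes, and none was higher (33.6%). These comparisons share their cortex, astrocyte or aSMC libraries and are not independent of each other. Reporter line, sort, input and depth changed together with the group, and their parts cannot be told apart.

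Proteins that hold the receptor at the membrane were counted next, from lists of genes that work with NMDA receptors. Of 14 scaffolds and membrane partners, 13 were tested. In aSMC Ai14 6 were lower than in cortex and none higher (median log2 fold change -3.92), and in astrocyte libraries 9 were lower and none higher (-3.86). The background for this and the following lists is that of all genes tested, of which 2% were lower and 3.97% higher in aSMC Ai14, and 19.8% lower and 14.6% higher in astrocyte libraries. The highest in aSMC Ai14 were Dlg1, a membrane guanylate kinase, at 64.2 ± 6.34 CPM against 91.9 ± 18.6 CPM in cortex (adjusted p = 0.803), and Shank1, a postsynaptic scaffold, at 23.1 ± 6.50 against 860 ± 333 CPM (log2 fold change -5.22, adjusted p = 0.00013). The largest called changes in aSMC Ai14 were those of Nlgn1, the adhesion protein neuroligin 1 (-5.57, adjusted p = 0.00234), and Neto1, an auxiliary protein of glutamate receptors (-5.55, adjusted p = 0.0302). Nlgn1 was at 0.303 and 0.457 CPM in aSMC Ai14 and at 154 to 223 CPM in aSMC Ai47, so the aSMC groups differed in it by -8.89 (adjusted p = 3.68e-05). In astrocyte libraries the largest called changes were those of Dlgap1, a linker of the postsynaptic density (-7.72, adjusted p = 0.000375), and Neto1 (-7.30, adjusted p = 0.000521).

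Signalling genes downstream of the channel formed another list. Of 14 kinases, phosphatases and effectors, all tested, 4 were lower and none higher in aSMC Ai14 than in cortex (median -1.73), and 6 were lower and 1 higher in astrocyte libraries (median -3.74). The highest of these in aSMC Ai14 were Calm2, which encodes a calcium sensor that binds GluN1, at 580 ± 62.1 against 283 ± 84.7 CPM in cortex (adjusted p = 0.204), and the kinase gene Camk2g, at 99.3 ± 9.57 against 31.0 ± 13.1 CPM (adjusted p = 0.183). The neuronal kinase genes Camk2b and Camk2a had the largest called changes, of -5.51 and -5.14 in aSMC Ai14 (adjusted p = 0.00156 and 0.000666) and of -10.99 and -11.08 in astrocyte libraries (1.54e-06 and 3.52e-07). Calm2 was the gene called higher in astrocyte libraries (1.64, adjusted p = 0.00426).

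Supply of glutamate and of the co-agonists was represented by 2 lists. Of 8 genes of glutamate release and uptake, 6 were tested, of which 5 were lower in aSMC Ai14 than in cortex and 4 in astrocyte libraries, with none higher. Slc1a2, the main astrocytic glutamate transporter, was at 158 ± 79.0 CPM in aSMC Ai14 and 324 ± 266 CPM in astrocyte libraries, against 9206 ± 4783 CPM in cortex (log2 fold changes -5.86 and -4.83, adjusted p = 0.000276 and 4.91e-05). Glul, glutamine synthetase, was at 118 ± 7.83 CPM in aSMC Ai14 against 1599 ± 572 CPM in cortex (-3.76, adjusted p = 0.000523). The largest called changes besides were those of Slc17a7, the vesicular glutamate transporter of cortical neurons (-5.93 in aSMC Ai14 and -10.64 in astrocyte libraries, adjusted p = 0.00599 and 3.12e-05), and of Slc1a1, a neuronal transporter, in astrocyte libraries (-6.66, adjusted p = 0.0015). Of 11 genes that make or move glycine and D-serine, 9 were tested, with 1 lower in aSMC Ai14 (Psat1, an enzyme of serine synthesis, -4.08, adjusted p = 0.00167). In astrocyte libraries 1 was higher (Slc1a4, a carrier of neutral amino acids, 83.4 ± 81.3 against 11.5 ± 8.04 CPM in cortex, adjusted p = 0.0134) and 1 lower (Slc7a10, a D-serine exchanger known from astrocytes, with no counts against 2.32 ± 3.30 CPM, adjusted p = 0.017). Slc6a9, a glycine transporter, and Srr, serine racemase, had the highest levels in aSMC Ai14, at 12.7 ± 0.972 and 9.13 ± 1.04 CPM, and did not pass against cortex (adjusted p = 0.878 and 0.461).

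The other ionotropic glutamate receptor genes gave a scale for the NMDA receptor ones. Of 9 AMPA and kainate receptor genes, all tested, 1 was lower in aSMC Ai14 than in cortex (Gria1, 1.15 ± 0.0893 against 31.6 ± 17.4 CPM, log2 fold change -4.76, adjusted p = 0.0243) and 6 were lower in astrocyte libraries, with none higher. Grik5 and Grik2, kainate receptor subunits, were the highest of them in aSMC Ai14, at 6.24 ± 1.76 and 2.14 ± 0.543 CPM, against 24.6 ± 5.61 and 18.3 ± 11.5 CPM in cortex (adjusted p = 0.425 and 0.16). Gria1 and Gria3 had no counts in astrocyte libraries, against 31.6 ± 17.4 and 28.6 ± 9.66 CPM in cortex (adjusted p = 2.84e-05 and 0.00304).

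Among 13148 other genes with a mean of at least 1 CPM, those whose log2(CPM + 0.5) followed Grin1 most closely over the 17 libraries were Rgs7 (Pearson's r = 0.977), Ptprt (0.973), Syt16 (0.973), Cnih2 (0.973) and Adgrb2 (0.971). All 5 were high in cortex (mean 17.4 to 61.8 CPM) and under 1 CPM on average in each sorted group. Within the 6 cortex libraries the same 5 had r between 0.581 and 0.781, as a description over libraries that also differ in depth and mitochondrial share. Among the NMDA receptor genes, r with Grin1 over the 17 libraries was 0.948 for Grin2b, 0.854 for Grin2a, 0.837 for Grin2c, 0.756 for Grin3a, 0.337 for Grin2d and -0.163 for Grin3b. These values span groups that differ in level. Within the 6 cortex libraries, r with Grin1 was -0.0695 for Grin2b, 0.0303 for Grin2a, -0.464 for Grin2c and 0.749 for Grin3a. It was -0.547 for Grin2d and 0.508 for Grin3b, the last on 2 counts.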

How the data were processed

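The authors deposited 1 table of raw counts per gene for 17 libraries, and all values here start from these deposited counts. The labels name Ovation RNA-Seq V2 and Ovation Ultralow V2 library kits, and the submitters' processing notes name Trim Galore 0.6.7, FastQC 0.11.9, MultiQC 1.13, Salmon 1.4.0 and GRCm38, whereas the study's methods name TruSeq, TopHat and htseq-count. The sources used here give neither which account applies to which library, nor the strand setting or annotation. The study's methods do not list the aSMC Ai14 and astrocyte libraries, and state that the cortex samples came from the dissociated cortices of the sorted mice. No other columns per sample were left out.

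Comparisons used edgeR 4.0.16 (R 4.3.3): filterByExpr at its defaults (minimum count 10), TMM scaling and the quasi-likelihood F-test, with Benjamini-Hochberg adjustment over all genes tested and a threshold of 0.05. Of the 6 comparisons, 5 came from 1 fit of all 17 libraries (14927 genes) and aSMC Ai47 against cortex from its own 12 libraries (11548 genes). All CPM use the 17-library TMM sizes. Exon lengths are unions of GENCODE M21 exons (21082 of 21640 symbols matched). Against a group at 0, a fold was bounded with 3 counts over the group. Poisson and exact ratio intervals are at 95%, and cover counting error only, since the reads carry no molecular identifiers. Alternatives were other scalings, filters, fits and libraries, and DESeq2 1.42.0. All 7 members are named, and of each partner list the 2 highest in aSMC Ai14 and the 2 largest called changes against cortex. Standard errors are the log2 fold change divided by the square root of the F statistic. A gene of the signalling list is not reported here and was left out of its counts. Members and lists were chosen with earlier results of these data known.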

Additional observations from a re-analysis of the deposited data

Results flagged for a closer look

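In 13 gene and group pairs with enough libraries, 5 single libraries lay apart from their group by Dixon's test. That test assumes normally distributed values, which CPM from few counts are not, so the number of flags cannot be set against chance. In aSMC Ai47, Grin2a in replicate 5 (11.8 CPM), Grin3a in replicate 2 (11.97 CPM) and Grin3b in replicate 6 (4.84 CPM) lay far above the other libraries, and Grin1 in replicate 4 (0.111 CPM, 3 counts) lay below them. In cortex, Grin3b had its only counts in replicate 2 (0.159 CPM, 2 counts), a pattern that this test always flags.

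For 3 genes the difference from cortex was not the same in the 2 aSMC groups, as tested by the difference between these groups in the 17-library edgeR fit. On the log2 scale the aSMC Ai14 difference exceeded the aSMC Ai47 one by 6.41 for Grin2d (adjusted p = 0.00109), 3.95 for Grin2b (adjusted p = 0.000445) and 3.50 for Grin2c (adjusted p = 0.0499, on 5 counts against none).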

How the results depend on the processing

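Of 632 refitted log2 fold changes of single genes, 557 kept their direction and side of the threshold, 58 lost the call, 8 gained it and 9 changed sign. Scaling by library totals alone moved the median over all genes by between -2.21 and 2.20 on the log2 scale, so changes are relative to the TMM scaling. Under it, the genes called were 1 for aSMC Ai14 against cortex and 0 for aSMC Ai47 against astrocyte, and the sign changed for Grin2a (1.47) and Grin3a (1.19) between the aSMC groups and for Grin2a (-0.48) and Grin2b (-0.37) between aSMC Ai47 and astrocyte. With only the 2 groups compared, 4 genes were called in aSMC Ai14 against cortex, and 0 in aSMC Ai14 and in aSMC Ai47 against astrocyte, where 3 and 1 of the 7 could be tested and, for aSMC Ai14, none of all 12864 genes was called. With the aSMC Ai47 columns as 1 library, 0 were called between the aSMC groups (63 of all 15916 genes were higher and 442 lower). Leaving out 1 library gave 0 to 3 calls for aSMC Ai14 against cortex (0 without either aSMC Ai14 library) and 1 to 2 for aSMC Ai47 against astrocyte (1 without astrocyte replicate 3). Leaving out 1 library also changed signs between the aSMC groups, for Grin1 (-0.12 to 0.18, negative without aSMC Ai47 replicate 4), Grin2a (-2.13 to 3.18, positive without replicate 5) and Grin3a (-3.11 to 0.29, positive without replicate 2), and for Grin2a in aSMC Ai47 against astrocyte (-2.18 to 5.06, negative without aSMC Ai47 replicate 5). Without cortex replicates 1 to 3, or 4 to 6, whose microglial and mitochondrial counts differ, 1 gene was called in aSMC Ai14 against cortex either way, an alternative chosen after seeing the data. Replicate numbers did not pair the libraries (correlations of same-numbered deviations -0.0447 to 0.0351). With a replicate block the counts were 6, 2 and 5 for astrocyte against cortex, aSMC Ai47 against astrocyte and aSMC Ai47 against cortex, Grin3a passed in the last (-4.80) and Grin2a changed sign in the second (-1.15). Other causes were not tested. Grin1 and Grin2c in the sorted groups, and Grin2d in aSMC Ai47 and astrocyte libraries, rest on few or no counts, so depth limits their order there.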
